A study of Drosophila melanogaster with 2 samples.

Results

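The genes ush and cbt lie together on chromosome 2L of Drosophila melanogaster, cbt inside the first intron of ush, and their locus was examined for regions called in a chromatin immunoprecipitation of Hnf4. Regions were taken where the summit, the position of highest enrichment that the authors gave, lay in either gene body or within 5 kb of it (dm6 build). The locus was selected on measured signal values, since the strongest peak supported by both replicates lies there, so its peak numbers and signal values are given as a description with no test. It held 19 of the 5817 peaks in the authors' optimal list. It also held 46 of the 30000 regions in the relaxed list of the pooled replicates, 51 of 29999 in the list of replicate 1 and 46 of 30000 in the list of replicate 2.

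The chromatin came from whole larvae of the third instar, wandering and of both sexes pooled, from a single transgenic line that stably expresses Hnf4 with green fluorescent protein at its C-terminus. The labels' description says that the precipitation used an antibody against that protein, while their antibody field names Hnf4. There was 1 group of 2 biological replicates, with a control in common according to the deposited file descriptions, and no second genotype, stage or treatment. All tissues of the animal were mixed, so strong binding in few cells and weak binding in many cannot be told apart. No read counts accompany the lists, so each replicate's depth is unknown and no counting interval was computed.

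Hnf4 is a nuclear receptor that binds DNA at a direct repeat of a short sequence and, in flies, acts in lipid and sugar metabolism. The gene ush (u-shaped, FBgn0003963) encodes a zinc finger protein of the Friend of GATA family, which binds GATA factors such as Pannier and Serpent and tunes their activity in the heart, blood cells and dorsal epidermis. The gene cbt (cabut, FBgn0043364) encodes a zinc finger transcription factor related to vertebrate TGF-beta inducible early genes. It is known as a target of the sugar-sensing pair Mondo and Mlx and as a gene needed for closure of the dorsal epidermis in the embryo.

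The locus ran from chr2L:471220-545560. The annotated ush gene covers chr2L:476220-540560, 64341 bp on the plus strand, and starts at 4 transcription start sites (TSSs): 476220 for ush-RD and ush-RE, 490835 for ush-RB, 523466 for ush-RA and 523736 for ush-RC. The annotated cbt gene covers chr2L:476446-479688, 3243 bp on the minus strand, with 1 TSS at 479688 shared by its 3 transcripts. Peaks are named below by the distance of their summit from the cbt TSS, in kb along the plus strand, so positive values lie upstream of cbt and further along ush.

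The sequences of the 4 strongest peaks outside annotated untranslated exons, and of the only 2 peaks with an Hnf4 site, carry the results on position and motifs and are shown as the plus strand of the Release 6 genome from RefSeq (dm6). Capitals mark the Hnf4 site CAAAGTCCA, its hexamers AGGTCA and AGTCCA, each a single repeat of such a site, and the E-box CACGTG, on either strand. The windows are chr2L:481001-481300, chr2L:479899-480182, chr2L:485768-485968 and chr2L:530325-530525 for the 4 strong peaks, then chr2L:487810-488010 and chr2L:488380-488580 for the peaks with the site.
+1.4 kb peak: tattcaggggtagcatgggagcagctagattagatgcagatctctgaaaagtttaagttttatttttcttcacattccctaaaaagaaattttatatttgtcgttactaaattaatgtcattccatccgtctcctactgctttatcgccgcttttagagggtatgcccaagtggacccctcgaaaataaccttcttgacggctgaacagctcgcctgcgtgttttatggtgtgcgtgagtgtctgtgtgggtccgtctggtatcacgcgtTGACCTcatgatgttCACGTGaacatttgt
+0.4 kb peak: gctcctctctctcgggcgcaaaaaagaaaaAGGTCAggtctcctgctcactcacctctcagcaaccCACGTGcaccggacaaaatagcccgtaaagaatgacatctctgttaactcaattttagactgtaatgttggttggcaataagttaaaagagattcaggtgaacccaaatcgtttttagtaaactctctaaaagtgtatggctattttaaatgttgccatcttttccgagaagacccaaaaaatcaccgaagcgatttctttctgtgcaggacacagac
+6.2 kb peak: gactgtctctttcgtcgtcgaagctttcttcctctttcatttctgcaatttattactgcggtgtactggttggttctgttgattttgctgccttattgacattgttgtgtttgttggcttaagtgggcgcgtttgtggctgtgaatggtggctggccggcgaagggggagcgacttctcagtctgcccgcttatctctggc
+50.7 kb peak: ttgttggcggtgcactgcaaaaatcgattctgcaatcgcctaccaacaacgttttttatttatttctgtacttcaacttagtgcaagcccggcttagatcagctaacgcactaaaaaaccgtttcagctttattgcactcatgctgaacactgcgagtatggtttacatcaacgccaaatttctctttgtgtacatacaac
+8.2 kb peak: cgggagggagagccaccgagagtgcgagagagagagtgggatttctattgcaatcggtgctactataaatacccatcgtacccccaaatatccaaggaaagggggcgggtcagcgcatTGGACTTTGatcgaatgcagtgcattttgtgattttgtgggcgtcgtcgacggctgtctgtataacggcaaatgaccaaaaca
+8.8 kb peak: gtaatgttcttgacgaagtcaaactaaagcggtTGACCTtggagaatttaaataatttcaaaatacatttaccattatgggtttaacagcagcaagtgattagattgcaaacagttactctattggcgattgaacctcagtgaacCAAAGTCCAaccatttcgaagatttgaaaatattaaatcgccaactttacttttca
Each window reaches at least 100 bp to either side of the summit. The first 2 are longer, to take in a hexamer and an E-box that lie elsewhere in the called interval.

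**Figure D1:**
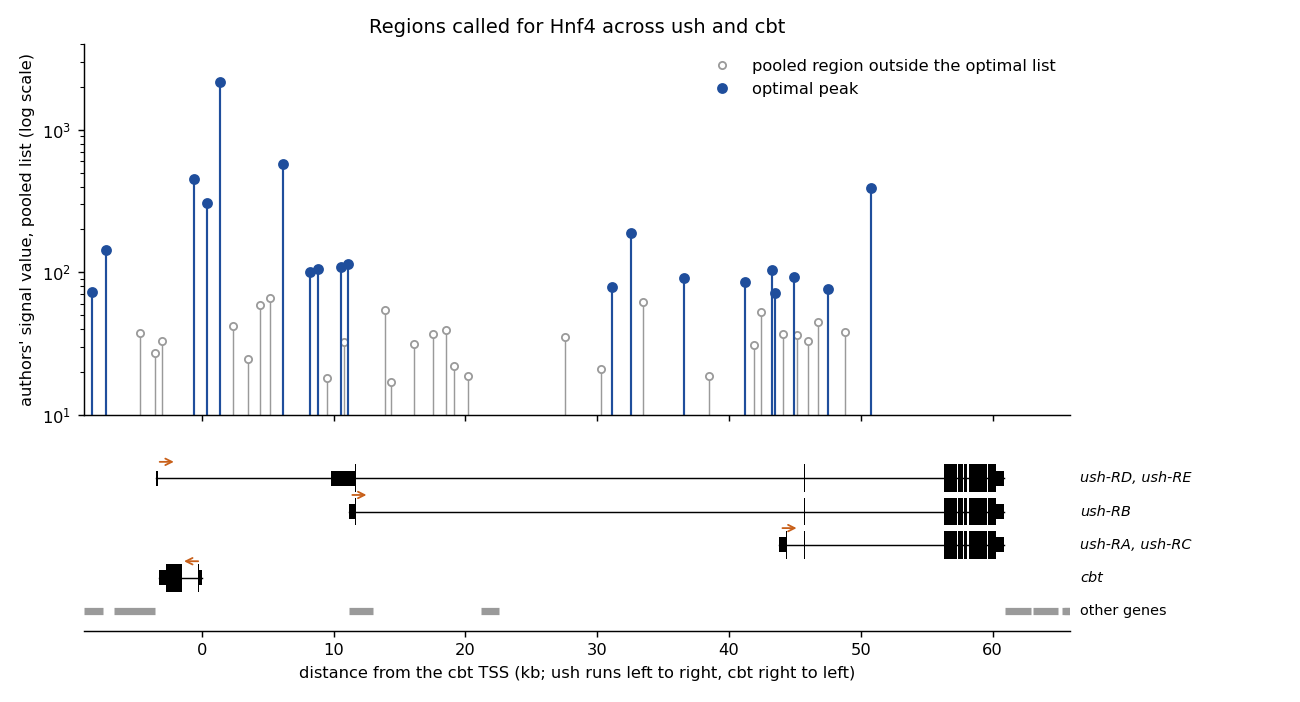
Regions of the pooled list across the locus, by summit position (kb from the cbt TSS) and the authors' signal value (log scale). Filled circles are the 19 optimal peaks and open circles the 27 weaker regions, above the transcripts of ush and cbt, whose exons are boxes and whose arrows give the direction of transcription. The tallest peak stands 1.4 kb upstream of cbt, and no region lies over the last coding exons of ush.

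Around cbt, 3 peaks within 2 kb of its TSS formed a cluster that includes the strongest of the locus. The +1.4 kb peak (chr2L:480574-481411, summit 481101) was the second strongest of all 5817 optimal peaks, with a pooled signal value of 2177, and it lay 1413 bp upstream of the cbt TSS in the first intron of ush-RD and ush-RE. The signal value, the authors' own measure of a region's enrichment, was 1137 in replicate 1 and 1074 in replicate 2, where it took places 5 and 2 of each list. The locus was chosen for this peak's signal in both replicates, so these places are part of that choice. Its interval was 838 bp wide, against a median of 396 bp over the 19 locus peaks and over all optimal peaks. Replicate 1 listed a second summit in the same interval, at 481263, with a signal value of 134 and place 1040.

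The other peaks of this cluster lay on either side of the TSS. The +0.4 kb peak (chr2L:479912-480235) lay 394 bp upstream of it, with a pooled signal value of 307. It had 169 in replicate 1 (place 654) and 167 in replicate 2 (place 348). The -0.6 kb peak (chr2L:478810-479307) lay 562 bp downstream, in the first intron of cbt-RA and untranslated sequence of cbt-RB and cbt-RC. Its pooled value was 453. It had 337 in replicate 1 (place 133) and 122 in replicate 2 (place 675). Replicate 1 thus ranked the -0.6 kb peak above the +0.4 kb peak, and replicate 2 ranked them the other way round. It was the only optimal peak inside the cbt body. The +6.2 kb peak (chr2L:485710-486015), within ush-RD intron number 1 and 4967 bp upstream of the ush-RB TSS, was the second strongest of the locus at 580, with 380 in replicate 1 and 198 in replicate 2. Its summits differed by 2 bp between replicates.

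The first ush TSS, at 476220, differed from that of cbt. No optimal peak lay within 1000 bp of it, and the nearest, the -0.6 kb peak, was 2906 bp away. The pooled list held only weak regions there, with signal values of 27.3 at 102 bp upstream and 33.3 at 465 bp downstream. The first of these lies in the last exon of MED15, which encodes a Mediator subunit, and the second in untranslated sequence of a cbt exon.

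The second ush TSS, that of ush-RB at 490835, had 2 optimal peaks within 1000 bp upstream. The +11.1 kb peak (chr2L:490565-490960) lay 72 bp from it, the closest of the 19 to a protein-coding TSS, with a pooled signal value of 115. It had 90.8 in replicate 1 (place 2088) and 19.9 in replicate 2 (place 8987), with the same summit base in both. The +10.6 kb peak (chr2L:490051-490446), 586 bp upstream, went the other way, with a pooled value of 109, 49.9 in replicate 1 (place 5165) and 57.9 in replicate 2 (place 2269). The order of these neighbours thus depended on the replicate. Both summits lie in untranslated sequence of ush-RE exon number 2. The long noncoding RNA gene lncRNA:CR46258 starts at the same base as ush-RB, so neither peak can be assigned to one of them by position.

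Between the cbt cluster and this TSS lay a pair of peaks 570 bp apart with near-equal pooled values. The +8.2 kb peak (chr2L:487712-488107) had a pooled value of 101, with 82.0 in replicate 1 and 20.9 in replicate 2. The +8.8 kb peak (chr2L:488282-488677) had 105, with 51.5 in replicate 1 and 53.7 in replicate 2. Of the pair, only the second was among the strongest regions of both replicates.

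The last pair of TSSs, of ush-RA and ush-RC, had 3 optimal peaks within 1000 bp, all of lower rank. The +43.3 kb peak (chr2L:522786-523181) lay 482 bp upstream of the ush-RA TSS and had a pooled value of 104, with 54.0 in replicate 1 and 53.0 in replicate 2. The +43.5 kb peak (chr2L:523006-523401), 262 bp upstream, had 71.2, the lowest of the 19. It overlapped the same strongest regions of both replicates as its neighbour, while replicate 1 also listed a region of its own there at 48.4. The +44.9 kb peak (chr2L:524429-524824) lay 891 bp downstream of the ush-RC TSS, at 93.5 pooled, 49.9 in replicate 1 and 43.1 in replicate 2. At the ush-RC TSS itself the pooled list held a weak region, at 37.0, with its summit 22 bp downstream.

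Away from the TSSs, the +50.7 kb peak (chr2L:530281-530580) stood out in the second intron of ush-RC, 6689 bp downstream of that TSS. Its pooled value was 393, below only those at +1.4, +6.2 and -0.6 kb in the locus. It had 227 in replicate 1 and 170 in replicate 2, at places 333 and 336, so both replicates ranked it nearly alike. The +32.6 kb peak (chr2L:512139-512349) was the strongest between the ush-RB and ush-RA TSSs, at 188, with 111 in replicate 1 and 73.4 in replicate 2. The remaining 4 intronic peaks, at +31.1, +36.6, +41.2 and +47.5 kb, had pooled values between 76.5 and 90.8, with 37.7 to 55.8 in replicate 1 and 25.5 to 37.0 in replicate 2.

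Most of the signal lay between the first 2 TSSs of ush. That stretch of 14615 bp held 8 of the 19 peaks and 73.8% of the summed pooled signal value (3947 of 5345). The 32631 bp from the second to the third TSS held 6 peaks and 11.6%, and the 17095 bp from the third TSS to the end of ush held 3 peaks and 10.5%. The strongest 4 peaks alone made up 67.4%, and the 2000 bp upstream of the cbt TSS made up 46.5%. The first intron of ush-RD, 49060 bp long, took in 15 of the 19 peaks and 87.2% of the signal. Read by gene body, 17 peaks lay in ush and 1 of these also in cbt, so assignment to cbt rests on its TSS and not on its body.

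The regions were unevenly spaced. Neighbouring optimal summits in the locus were a median of 1906 bp apart, with a range from 220 to 20031 bp, against a median of 5468 bp over all optimal peaks. Optimal intervals covered 9.62% of the locus, against 1.48% of chromosome 2L, at 25.6 and 4.84 peaks per 100 kb. The widest gap followed the ush-RB TSS, where 20030 bp held no optimal peak and 9 weaker pooled regions of at most 54.7. The protein-coding end of ush had no called region in the lists used here: from chr2L:530581-545560, 14980 bp held no region in the optimal, pooled or replicate lists. The next summit in each of the 4 lists lay about 72 kb beyond the +50.7 kb peak, at 602750 in the pooled list. Of 5773 gaps between neighbouring pooled summits on 2L, 33 were wider than 72 kb, and the median gap was 1231 bp. The lists do not tell a stretch without enrichment from a stretch that could not be measured, so this gap shows only where they hold no region.

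Peaks also lay at the genes upstream of ush. The -7.3 kb peak (chr2L:472410-472509) lay between CG4297 and MED15, 222 bp and 591 bp upstream of their TSSs, with a pooled value of 144, 92.8 in replicate 1 and 52.3 in replicate 2. That pooled value is above the 115 that was the highest within 1000 bp of any ush TSS. The -8.3 kb peak (chr2L:471161-471556), in an intron of CG4297, had 73.1, with 58.3 in replicate 1 and 15.4 in replicate 2. Counted with 5 kb around it, MED15 had 7 peaks and a summed signal value of 3403, of which the peaks around cbt are part. No region of any list lay in the locus part of lwr, which encodes a SUMO-conjugating enzyme, Spp, a signal peptide peptidase gene, Ets21C, an ETS factor gene, or nAChRbeta3, an acetylcholine receptor subunit gene. The long noncoding RNA gene lncRNA:CR46259, inside ush, held no pooled summit. Just outside the 5 kb limit, the nearest optimal summit lay at 470640 with a signal value of 134, 580 bp from the edge, and just inside it lay the -8.3 kb peak, 139 bp from the edge.

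Of the 46 pooled regions of the locus, 19 or 41.3% were in the optimal list, against 19.4% of all 30000. That list equals the strongest 5817 pooled regions, and the locus was chosen for its strong peaks, so nothing is read from this difference. The 27 weaker regions ran from 17.0 to 66.5 with a median of 35.3, against a median of 25.3 over the 24183 weaker regions of the whole pooled list. Just outside the threshold was a region at summit 484835 with 66.5 (place 5833), and just inside was the +43.5 kb peak with 71.2 (place 5344). That region lies between the cbt cluster and the +6.2 kb peak. Its values were 56.1 in replicate 1 and 16.2 in replicate 2.

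**Figure D2:**
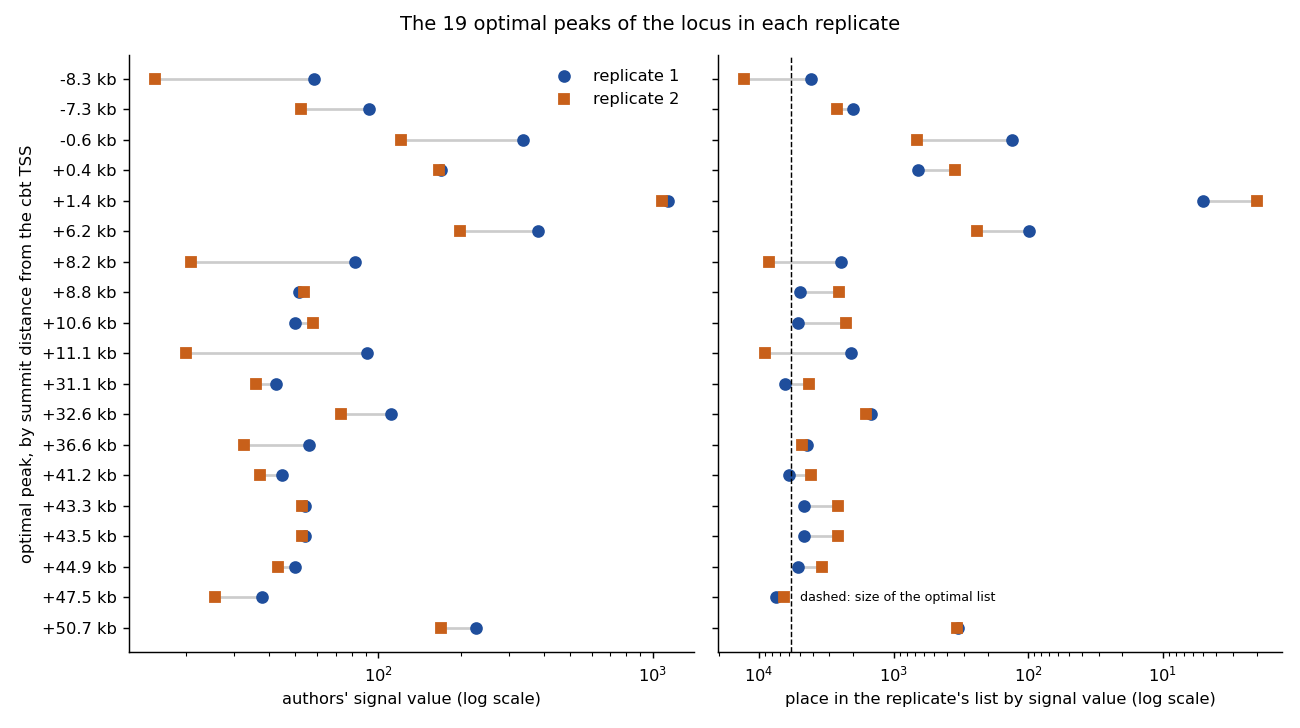
The 19 optimal peaks of the locus in each replicate, with the authors' signal value on the left and the place in that replicate's list on the right (both log scales), in order of position. In both replicates 13 peaks lie to the right of the dashed line, which marks place 5817, and the peaks at -8.3, +8.2 and +11.1 kb fall behind it in replicate 2 alone.

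Every one of the 19 peaks overlapped some region of each replicate, as did 99.5% of all optimal peaks in replicate 1 and 97.6% in replicate 2. Among the strongest 5817 regions of each replicate, 13 of the 19 had an overlapping region in both, which is 68.4% against 71.0% of all optimal peaks. The share is near that background and partly built in, since the optimal list came from these replicates. Of the other 6, the peaks at -8.3, +8.2 and +11.1 kb had such a region in replicate 1 only, those at +31.1 and +41.2 kb in replicate 2 only, and that at +47.5 kb in neither. The 3 peaks that rested on replicate 1 had places 13065, 8472 and 8987 in replicate 2. Summits of the replicates lay a median of 22 bp apart in the locus, with a range from 0 to 92 bp, against a median of 30 bp over all optimal peaks.

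Over the 19 peaks the replicates' signal values had a Spearman's rho of 0.60 and, on the log2 scale, a Pearson's r of 0.86, against 0.70 and 0.78 over the 5651 optimal peaks with both values. Over the 13 locus peaks outside the strongest 1500, rho was -0.245 and r was -0.230. These 13 were picked by pooled signal value, which draws on both replicates, and the same cut was not made over all optimal peaks. Such a cut can lower a correlation by itself, so nothing is read from the negative values. The peaks share both libraries and one control, and those at +43.3 and +43.5 kb share their replicate regions, so these are descriptions across peaks. The median replicate signal value was 58.3 in the locus against 73.1 over all optimal peaks in replicate 1, and 53.0 against 48.1 in replicate 2.

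**Figure D3:**
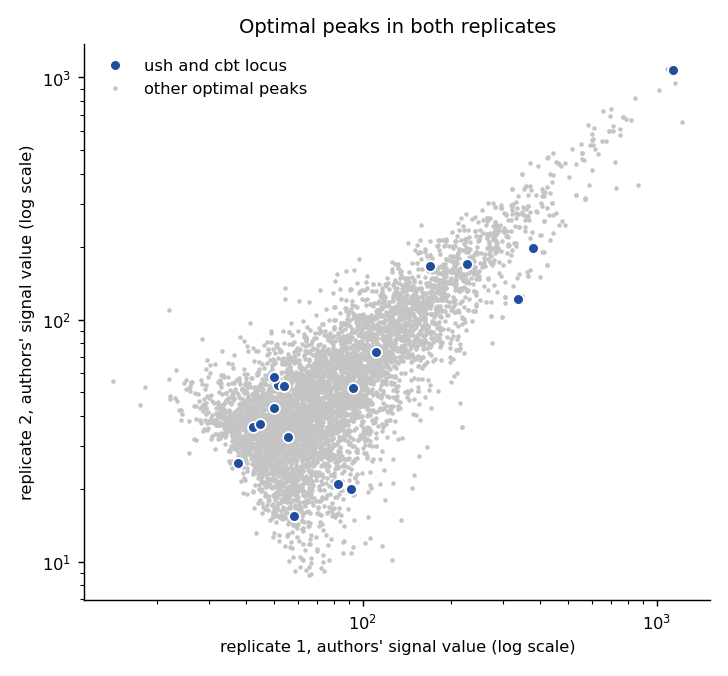
Signal value of each optimal peak in replicate 1 (x) and replicate 2 (y), both on log scales, with the 19 peaks of the locus in blue and the other optimal peaks in grey. The +1.4 kb peak sits at the top right with 1137 and 1074, and 3 locus peaks lie low in replicate 2, between 15.4 and 20.9.

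Most locus peaks were of ordinary strength. The pooled signal value of the 19 had a median of 105 with a range from 71.2 to 2177, against a median of 114 over all 5817. Of the 19, 6 were in the strongest 25% of the list (31.6%) and 11 were in its weaker 50% (57.9%). A summit within 1000 bp of a protein-coding TSS was found for 9 of 19, or 47.4%, against 53.8% of all optimal peaks, a share near that background. The median distance to such a TSS was 1413 bp in the locus and 768 bp over all peaks. G and C made up a median of 40.8% of the bases within 100 bp of the locus summits, from 28.4% to 56.7%, against 36.8% over all peaks.

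Motifs were counted as matches of letters on both strands within 100 bp of a summit. The Hnf4 site CAAAGTCCA occurred at 2 of the 19 peaks (10.5%), against 1.05% of all optimal peaks, and at 0 of the 27 weaker locus regions. In the +8.2 kb peak it lay at 487928 to 487936 on the minus strand, 22 bp from the summit. In the +8.8 kb peak it lay at 488525 to 488533 on the plus strand, 49 bp from the summit, with a hexamer AGGTCA 64 bp on the other side. These were the only 2 matches in the whole locus, and both peaks were of middling strength, at places 3429 and 3258.

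The full direct repeat of the Hnf4 site, with 1 base between repeats, matched at none of the 19 peaks, against 0.705% of all. Its single match in the locus, GGTTCAAAGTACA at chr2L:502301-502313 on the minus strand, lay 8487 bp from the nearest optimal summit. There the only overlapping region was one of replicate 1, with a signal value of 11.0 and place 29350 of 29999. A match is a description of letters and not a measured binding site.

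A hexamer, AGGTCA or AGTCCA, lay within 100 bp of 5 of the 19 summits (26.3%), against 10.3% of all optimal peaks. AGTCCA is contained in the Hnf4 site, so 2 of these 5 are the peaks at +8.2 and +8.8 kb. The 19 peaks are neighbours in a chosen locus, so none of these motif shares was tested. The others were the -0.6 kb peak, with AGTCCA 6 bp from its summit, the +36.6 kb peak, with AGGTCA 34 bp away, and the +44.9 kb peak, with AGTCCA both 8 and 2 bp away. The 3 strongest peaks apart from that at -0.6 kb, at +1.4, +6.2 and +50.7 kb, had no hexamer in this window. Across the whole locus AGGTCA had 2.56 matches per 10 kb against 2.85 on 2L, and AGTCCA had 4.84 against 4.04.

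The 3 peaks next to the cbt TSS each held an E-box CACGTG within the called interval, and none of the other 16 did. Which factor, if any, binds these letters here was not measured, whether Mondo-Mlx, a clock factor or another. An E-box anywhere in the interval was found in 3 of the 19 peaks (15.8%), against 3.78% of all optimal peaks, whose intervals differ in width. In windows of equal width the shares were closer. They were 15.8% against 6.00% within 250 bp of the summit, and 21.1% against 12.5% within 500 bp. Each of the 3 intervals also held a hexamer, and the pair occurred together in 38 of all 5817 intervals (0.653%). The bases between them numbered 9 in the +1.4 kb peak, 30 in the +0.4 kb peak and 58 in the -0.6 kb peak. In the +1.4 kb peak the hexamer's middle lay 172 bp from the main summit, and it began at 481271, 8 bp past the second summit of replicate 1. These counts over whole intervals and wider windows were made after the values were seen. Within 100 bp of the summit an E-box matched at 1 of 19 peaks (5.26%), the -0.6 kb peak, against 2.15%. The whole locus held 12, or 1.61 per 10 kb against 1.23 on 2L.

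The strongest peak had few of the searched letters near its summit. Within 100 bp the +1.4 kb peak held a GATA core GATAA 43 bp away and no other motif of the 16 searched. Its interval held 1 match each of AP-1 (TGANTCA) and Zelda (CAGGTAG), at 418 and 292 bp before the summit, besides the hexamer and the E-box. The +50.7 kb peak held none of the 16 in its whole 300 bp.

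Since ush partners GATA factors, matches of AGATAAG were counted too. The locus held 23, or 3.09 per 10 kb against 1.22 on 2L, and 1 of them lay within 100 bp of an optimal summit, that of the +6.2 kb peak. The share of peaks with a match in this window was 5.26% against 2.92% overall. Another match lay in the interval of the +32.6 kb peak, 114 bp from its summit. The core GATAA occurred at 6 of the 19 peaks (31.6%), against 41.2% of all. The GAGA factor sequence GAGAGAG occurred at 4 of the 19 (21.1%), against 6.05% of all, with 13 overlapping matches at the +11.1 kb peak next to the ush-RB TSS. These letters were frequent across the locus as a whole, with 77 matches, or 10.4 per 10 kb against 2.13 on 2L. Of the 77, 21 lay within 100 bp of an optimal summit.

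Other letters were sparse. CACCC, a Sp/KLF sequence, occurred at 4 peaks (21.1%, against 17.1%) and GGGCGG at 2 (10.5%, against 3.68%). The DNA replication-related element TATCGATA, the M1BP site GGTCACAC, AP-1, the CREB site TGACGTCA, the FOXO site GTAAACA and the Zelda site matched within 100 bp of 0 of the 19 summits. Over all optimal peaks the shares of these 6 ran from 0.344% for CREB to 6.95% for FOXO.

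**Figure D4:**
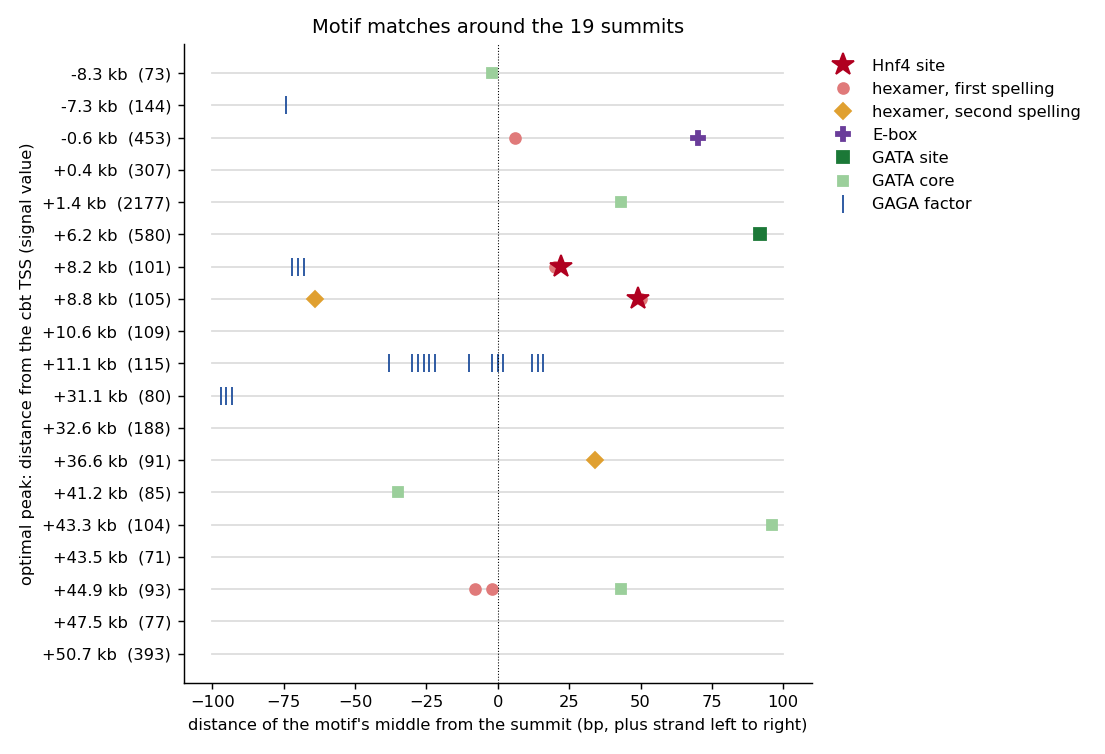
Motif matches within 100 bp of the 19 summits, in order of position, with each peak's pooled signal value in parentheses. Each symbol is the middle of a match, and x is its distance from the summit in bp along the plus strand. Circles are AGTCCA and diamonds AGGTCA, and the Sp/KLF letters are not drawn. The 2 Hnf4 sites lie at +8.2 and +8.8 kb, and the peaks at +1.4, +6.2 and +50.7 kb have neither site nor hexamer.

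Set beside the 13981 protein-coding genes, of which 6195 had an optimal peak within the body or 5 kb of it, ush stood at place 4 by number, with 19, and at place 12 by summed signal value, with 5345. All 11 genes ahead by summed value are mitochondrial. Genes with at least as many peaks were kirre, an adhesion protein gene of muscle founder cells, with 23, Eip75B with 22, CG1677 with 20, and Svil, a supervillin gene, and sbb, a transcriptional corepressor gene, with 19 each. Of 321 genes within 1.5 times the length of ush, the median number was 2, 1 gene (sbb) had as many, and none had as high a sum. The gene cbt, counted the same way, had 4 peaks, at place 508, and a sum of 3081, at place 21, all from peaks that ush shares. Among 3423 genes within 1.5 times its length the median number was 0 and the highest 7, 204 had as many peaks as cbt, and 1 (MED15) had as high a sum. The locus was chosen for its +1.4 kb peak, at 2177, which is part of the sums of ush, cbt and MED15. Their places by sum are therefore partly built in.

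The 5 genes off the locus most like ush in number, highest and summed signal value were found by distance over these 3 values in 2 pooled libraries. Of genes that share the same peak only the first was kept. The first of the 5 was mt:ND4, a mitochondrial subunit gene of respiratory complex I, at a distance of 1.08. Its 12 peaks and sum of 7223 need care, since the list of replicate 1 held 29 mitochondrial regions and that of replicate 2 held 0. Next came Eip75B, an ecdysone-induced nuclear receptor gene, with 22 peaks, a highest value of 960 and a sum of 3474. Tlk, a kinase gene, had 16 peaks with a highest value of 1011, Svil had 19 with 932, and dnr1, a regulator of immune signalling, had 8 with 1880. For cbt they were CG33307, CG1888, CG42594, CG31668 and l(3)neo38, at distances from 0.768 to 0.999. Their highest values ran from 1311 for l(3)neo38 to 1615 for CG1888, all below the 2177 of cbt, the peak that chose the locus.

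**Figure D5:**
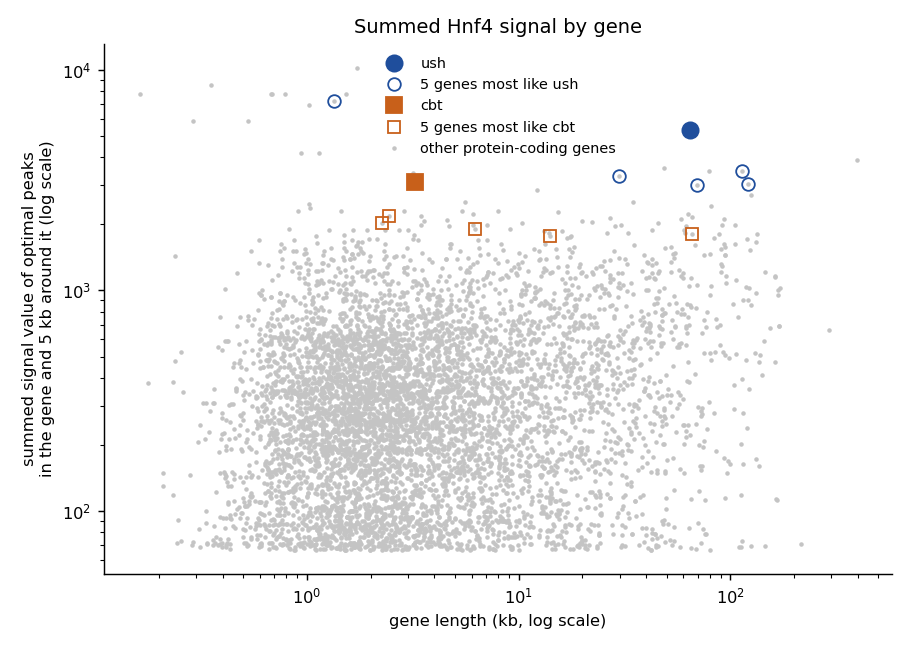
Summed signal value of the optimal peaks in each protein-coding gene and 5 kb around it (y, log scale) against gene length in kb (x, log scale), for the 6195 genes with a peak. The filled circle is ush at 5345 and the filled square cbt at 3081, and open symbols are the 5 genes most like each.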

How the data were processed

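Hnf4 chromatin immunoprecipitation was analysed from 4 dm6 region lists that the authors deposited: 2 replicate lists and a pooled list, all relaxed, and an optimal list. The optimal list was thresholded by reproducibility between replicates and equals the strongest 5817 pooled regions. Places in every list are by signal value. The signal value of each region, its −log10 q and its positions are the authors' deposited values, in narrowPeak format per the deposited file descriptions. The aligner was not given in the sources used here, nor was the peak caller. The 4 dm3 lists were not used. Signal values were compared only within a list, and places in the list across lists. Depth is unknown.

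Summits were placed on Ensembl release 115 genes (BDGP6) in 1-based coordinates. A replicate region matched a peak by an overlap of at least 1 bp, the one with the highest signal value being taken. Promoter meant within 1000 bp of a protein-coding TSS. Both strands were searched for 16 motifs, up to 100 bp from a summit. Named genes were ush, cbt, the genes that overlap the locus or hold the nearest TSS of a peak, and the 5 most like ush and cbt by Euclidean distance over 3 scaled log2 values. Genes of the locus were left out of these 5, and of genes that share the same peak only the first was kept. Other genes with as many peaks were named after their values were seen. The members, motifs and alternatives were chosen with earlier results of these data known. Alternatives were other flanks, overlaps, windows and stricter sets, and each replicate alone. Matching, counting and motif search were tested on simulated data. The tools were numpy 2.4.6, scipy 1.17.1, pandas 2.3.3 and matplotlib 3.10.9 under Python 3.11.15.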

Additional observations from a re-analysis of the deposited data

How the results depend on the processing

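Over 7 results, 22 of 27 alternatives gave the same median or a count within 1.5 times of that reported, which included genes without flanks (17 peaks) and with 10 kb (21 peaks). With the strongest 50% of the optimal list, 8 of the 19 peaks were left, by construction. Without replicate 1 or replicate 2, the signal value of the strongest peak ranged from 1073.6 to 1136.6, each in its own list, against 2177.2 pooled, and its levels cannot be compared across lists. A hexamer lay within 200 bp of 9 summits (47.4%, against 18.8% of all optimal peaks) and within 50 bp of 4 (21.1%, against 5.14%), in place of 5 within 100 bp. The median summit distance between replicates was 23 bp in the peaks among the strongest of both, in place of 22 bp. The whole list of each replicate, tried after the data were seen, held 46 and 51 locus regions. No paired analysis was possible because there is 1 group. With 2 replicates, 1 control, whole animals and no read counts, neither the error of a signal value nor the tissue of a peak can be given.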

Other observations

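The authors' −log10 q did not follow the signal value closely in the locus. The peaks at +1.4 and +6.2 kb shared the highest value, 2.45, which was also the highest over all 5817 optimal peaks. The -0.6 kb peak, with a signal value of 453, had 1.82, and the +50.7 kb peak, with 393, had 1.97. The +8.2 kb peak, at a signal value of 101, had 2.37. Spearman's rho of signal value and −log10 q was 0.43 over the 19 locus peaks and 0.25 over all 5817, as a description across peaks of 1 list.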
